A study of Mus musculus with 2 samples.

Results

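The Rab GTPases are small membrane-bound switches of vesicle traffic, and their genes were followed here transcript by transcript in long reads of mouse hippocampus. Members were the protein-coding genes whose symbol is Rab followed by a number and an optional letter or digit, which gave 59 of the 22028 protein-coding genes among 55536 annotated genes of GENCODE M21. The rule used no measured value. The tissue, labelled layer of hippocampus, was taken at 14 days from female B6CASTF1/J mice, whose parents are of the strains C57BL/6J and CAST/EiJ. There was 1 group with 2 libraries, replicate 1 and replicate 2, each made from a pool of 3 animals and 2 µg of total RNA with ERCC and SIRV spike-in RNA, and no treatment, mutant allele or second condition. The sample characteristics give the pools different animals, but a description line of both libraries carries the same animal numbers, so separate animals rest on the former label. A p-value between these libraries compares 2 libraries and not 2 conditions.

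A Rab protein is active when it carries GTP and inactive when it carries GDP. Exchange factors load GTP, GTPase-activating proteins end the active state, effectors bind the GTP form, and GDP dissociation inhibitors draw the GDP form off membranes. Lipids added to cysteines at the C-terminus hold the protein on its membrane, and each member marks a compartment: Rab3 proteins synaptic vesicles, Rab5 early endosomes, Rab7 late endosomes, Rab11 recycling endosomes, Rab1, Rab2 and Rab6 the endoplasmic reticulum and Golgi.

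Replicate 1 held 1168366 reads and replicate 2 held 888704, so 1 read was worth 0.856 and 1.13 CPM (counts per 1000000 reads of the library). Rab genes took 8204 and 6708 of these reads, 0.702% and 0.755%. A read is 1 cDNA whatever its length, so CPM are compared between genes without division by length. The libraries differed in choroid plexus markers, whose sum over 6 genes was 4659 CPM in replicate 1 and 7.88 CPM in replicate 2, led by Ttr at 4558 and 5.63 CPM. All 6 neuronal markers were read, with sums of 4797 and 5553 CPM, and the sums of 6 hippocampal field markers were 930 and 1003 CPM. Of these 6, 3 were higher in replicate 2 by the exact binomial test used for the Rab genes, Prox1 (6.85 and 38.3 CPM), C1ql2 (81.3 and 142 CPM) and Wfs1 (108 and 159 CPM), and Pcp4 was higher in replicate 1 (316 and 227 CPM). Prox1 and C1ql2 also passed with the trend of the ratio with the length of a gene's most read model removed. Astrocyte markers summed to 2995 and 4766 CPM and myelinating oligodendrocyte markers to 4808 and 6454 CPM. Kcnj13, Clic6 and Folr1, choroid plexus markers, were at 0 reads in replicate 2. The part of these marker differences in the Rab results was not tested. In tissue RNA, fewer cells of a type and less RNA per cell cannot be told apart.

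The coding sequences show what the members share beyond their names. All 59 genes had a complete annotated coding transcript, of 194 to 973 codons with a median of 215, the longest being Rab44. The P-loop, which binds the phosphates of the nucleotide, was searched as a glycine codon, 4 free codons, a glycine codon, a lysine codon and a serine or threonine codon. It was found in 57 of 59 genes, within the first 40 codons in 51 of them, and at codon 792 in Rab44. Rab40b and Rab40c held no match to these codons. The P-loop of Rab3a, the most read member, and of Rab6a and Rab28, described later for their exons, is shown from the reference transcripts (mm10, plus strand except Rab28), with the glycine and lysine codons in capitals. The codons of Rab3a lie at chr8:70755940-70755963, and those of Rab6a and Rab28 cross an intron.
Rab3a-201: GGGaacagcagcgtgGGCAAAacc
Rab6a-201: GGAgagcagagcgttGGAAAGacg
Rab28-201: GGGgacggcacctcgGGGAAGacc

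Every member carried a cysteine codon among its last 4 codons. In 20 genes the last codon was a cysteine, with 1 other codon before it and then a second cysteine. In 15 the last 2 codons were cysteines, in 21 a cysteine was followed by 3 more codons, and in Rab20, Rab34 and Rab44 a pair of cysteines stood just before the last codon. The last 10 codons and the stop codon of the Rab3 paralogs are shown because their tails are alike in these cysteine codons (capitals) and their levels are far apart. They lie at chr8:70758056-70758088 (plus strand), chr4:108940781-108940813 (plus), chr13:110061815-110061847 (minus) and chr9:21910484-21910516 (minus).
Rab3a-201: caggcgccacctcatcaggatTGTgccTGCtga
Rab3b-202: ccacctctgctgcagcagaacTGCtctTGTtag
Rab3c-201: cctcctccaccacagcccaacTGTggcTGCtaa
Rab3d-201: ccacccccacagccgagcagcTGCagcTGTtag

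Of the 59 Rab genes, 55 were read in at least 1 library and 54 in both. A mean of at least 100 CPM was reached by 18 members and of at least 10 CPM by 45. The 5 highest members held 42.5% of the summed Rab level and the 10 highest 63.8%. The rank order was almost the same in both libraries (Spearman's rho 0.985 across the 59 genes, which are not independent replicates). No reads were found for Rab17 and Rab25, known from epithelial sorting, for Rab19, or for Rab44, a large member outside the usual size. A count of 0 allows up to 3 reads, which is 2.57 CPM in replicate 1 and 3.38 CPM in replicate 2.

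**Figure D1:**
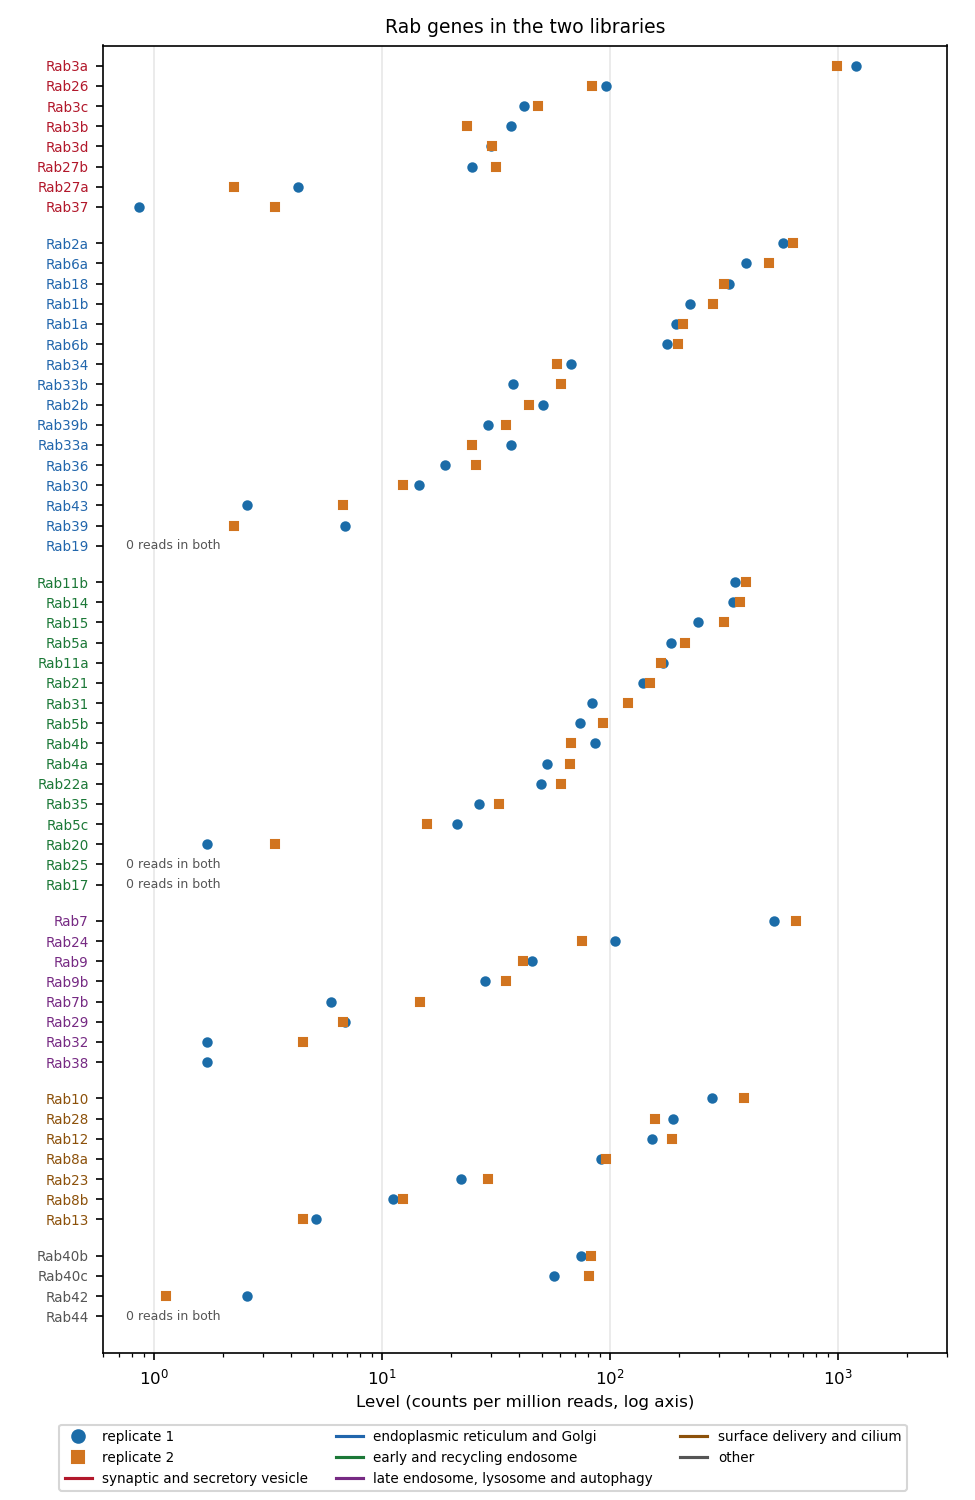
Level of each Rab gene in CPM on a log axis, with replicate 1 as circles and replicate 2 as squares, grouped by compartment (colour of the gene name). Rab3a stood above all other members at 1202 and 989 CPM, and the 4 genes with no read carry a note in place of points, while the 0 of Rab38 in replicate 2 is not drawn.

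Among the 8 synaptic and secretory vesicle members, Rab3a alone made up most of the level. Rab3a, which rides on synaptic vesicles and binds RIM proteins and rabphilin at release sites, had 1202 CPM (1404 reads) in replicate 1 and 989 CPM (879 reads) in replicate 2. Rab26, a Rab of secretory granules, followed at 95.9 and 83.3 CPM, and Rab3c, a close relative of Rab3a, at 41.9 and 48.4 CPM. Rab3b had 36.8 and 23.6 CPM, Rab3d 35 and 27 reads, and Rab27b, known from secretory granules, 24.8 and 31.5 CPM. The 4 Rab3 paralogs thus covered a wide range in each library, with no overlap between Rab3a and the others. Rab27a and Rab37 had 7 and 4 reads over both libraries. The group summed to 1324 CPM ± 159 (SD, n = 2), 20.5% and 16.1% of all Rab CPM.

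The 16 endoplasmic reticulum and Golgi members held the largest summed level of the groups, 2280 CPM ± 175 (SD, n = 2), and 15 of them were read. Rab2a, which acts between the endoplasmic reticulum and Golgi, had 570 CPM in replicate 1 and 631 in replicate 2. Rab6a, of Golgi traffic, had 393 and 496 CPM, and Rab18, of the endoplasmic reticulum and lipid droplets, 332 and 316 CPM. Rab1b and Rab1a, which act in transport to the Golgi, had 223 and 284 CPM and 195 and 208 CPM. Rab6b, the paralog of Rab6a described from neurons, had 178 and 198 CPM. The remaining 9 members read lay lower, from Rab34, known from cilia and the Golgi, at 67.6 and 58.5 CPM. Rab33b, which binds an autophagy protein complex, had 37.7 and 60.8 CPM, and its paralog Rab33a 36.8 and 24.8 CPM, so the pair lay within 1 read of each other in replicate 1. Rab2b, the paralog of Rab2a, had 50.5 and 43.9 CPM. Rab39b, a Rab of neurons, had 34 and 31 reads, Rab36 22 and 23, and Rab30 17 and 11. Rab43 and Rab39 had 9 and 10 reads over both libraries.

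The 16 early and recycling endosome members summed to 1949 CPM ± 169 (SD, n = 2), with 14 read. Rab11b, of recycling endosomes, led with 353 and 394 CPM, followed by Rab14, of endosome to Golgi traffic, with 345 and 369 CPM, and Rab15, of recycling endosomes, with 243 and 316 CPM. Rab5a, the early endosome Rab that recruits EEA1, had 184 and 214 CPM, against 73.6 and 93.4 for Rab5b and 21.4 and 15.8 for Rab5c. Rab11a had 171 and 167 CPM, below Rab11b in both libraries. The paralogs Rab4b and Rab4a, of fast recycling, had 85.6 and 67.5 CPM and 53.1 and 66.4 CPM. Rab21, of integrin traffic, had 139 and 150 CPM, and Rab31, a relative of Rab22a, 97 and 106 reads. Rab22a had 49.6 and 60.8 CPM, Rab35 26.5 and 32.6 CPM, and Rab20 5 reads in all.

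Rab7, the late endosome and lysosome Rab, had 520 CPM in replicate 1 and 650 in replicate 2 and made up most of the 772 CPM ± 79.7 (SD, n = 2) of the 8 late endosome, lysosome and autophagy members. Rab24, linked to autophagy, had 105 and 75.4 CPM, and Rab9, of return from late endosomes to the Golgi, 45.4 and 41.6 CPM. Rab9b had 28.2 and 34.9 CPM, while Rab7b had 7 and 13 reads and Rab29, an activator of the kinase LRRK2, 8 and 6. Rab32 and Rab38, known from melanosomes, had 6 and 2 reads over both libraries. The 7 surface delivery and cilium members summed to 812 CPM ± 85.3 (SD, n = 2). Rab10, of delivery to the plasma membrane, had 281 and 387 CPM, Rab28, of the cilium, 188 and 156 CPM, and Rab12, which binds LRRK2, 153 and 187 CPM. Rab8a, of cilium and surface delivery, had 90.7 and 95.6 CPM, far above its paralog Rab8b with 11.1 and 12.4 CPM. Rab23 had 22.3 and 29.3 CPM and Rab13, of epithelial junctions, 10 reads in all. Rab40b and Rab40c, which carry a domain of ubiquitin ligases, had 74.5 and 82.1 CPM and 56.5 and 81.0 CPM, Rab42 had 4 reads, and Rab44 none.

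The 2 libraries were then compared gene by gene. Each read split was set against the library totals in a two-sided exact binomial test, with Benjamini-Hochberg adjustment over the 11681 annotated genes with at least 10 reads. Of 59 Rab genes 48 reached 10 reads, and 5 passed (10.4%), beside 10.8% of all genes tested. Rab3a was higher in replicate 1, where 5.03% of all genes passed, and Rab7, Rab10, Rab6a and Rab15 were higher in replicate 2, where 5.81% did. The share of members called was thus near the background. For Rab3a the log2 ratio of replicate 2 over replicate 1 (1 CPM added) was -0.28 with an adjusted p of 0.00019 by the exact binomial test. For Rab10 it was 0.46 (adjusted p = 0.000903, exact binomial test), for Rab7 0.32 (0.00277), for Rab6a 0.34 (0.00819) and for Rab15 0.38 (0.024). The members' median log2 ratio was 0.14, beside 0.11 over all genes tested. The median size of the ratio was 0.28, beside 0.37.

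The log2 ratio varied with the length of a gene's most read model. For some genes, Rab6b and Rab3c among them, this is a 1-exon model, whose coordinates need not be those of its reads. Rab3a's most read model is 1363 nt long, and those of Rab10, Rab6a and Rab15 are 3513, 3214 and 3158 nt. That of Rab7, also higher in replicate 2, is 2159 nt, below the members' median of 2620 nt. Spearman's rho of ratio with length was 0.37 across the 48 Rab genes and 0.51 across 6456 genes with at least 50 reads, given as a description, since all points share the same 2 libraries. With the length trend removed from the expected split, none of the 5 genes passed (Rab3a: log2 ratio -0.06, adjusted p = 0.829, exact binomial test) and Rab18 did, higher in replicate 1 (-0.36, adjusted p = 0.0412). That is 1 of 48 Rab genes, beside 3.53% of all genes at this setting, so the calls fell over the whole data set too. With TMM-scaled totals 2 of the 48 passed, Rab3a and Rab10, beside 9.74% of all genes.

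**Figure D2:**
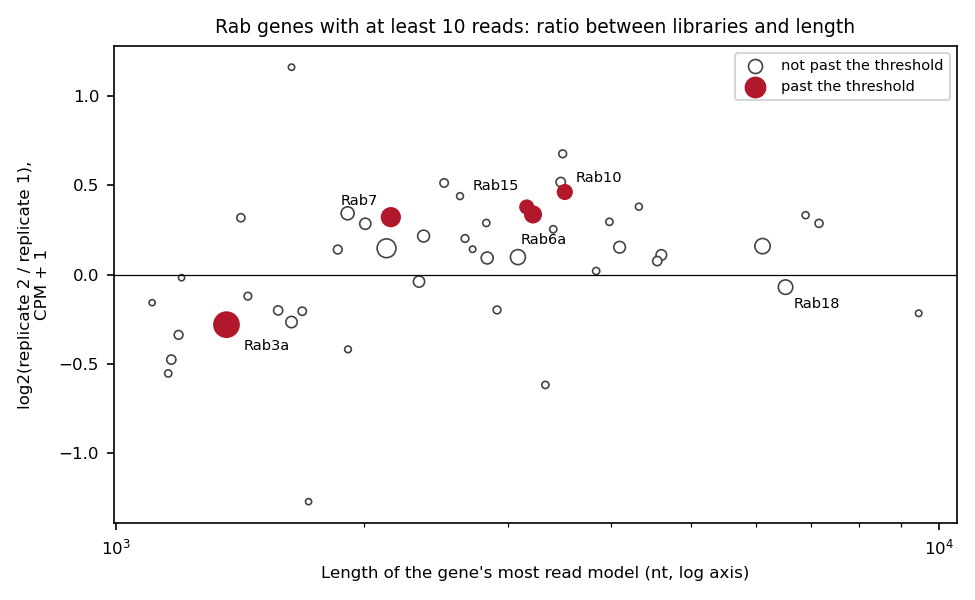
Log2 ratio of replicate 2 over replicate 1 (CPM + 1) against the length of each gene's most read model for the 48 Rab genes with at least 10 reads; point area grows with the reads and filled points passed the threshold. Rab3a, at 1363 nt, lies below 0, and the 4 filled points above 0 have models of 2159 to 3513 nt.

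The genes that drive the Rab cycle were taken from a list of 57, and all 57 were read. Of 49 tested, 3 passed the binomial test, 1 higher in replicate 1 and 2 higher in replicate 2, beside the 10.8% background. Rabac1, which binds prenylated Rab proteins, had 140 CPM in replicate 1 and 76.5 in replicate 2 (log2 ratio -0.87, adjusted p = 0.0005, exact binomial test). Rph3a, the Rab3 effector rabphilin, had 110 and 162 CPM (0.55, adjusted p = 0.0223, exact binomial test). With the length trend removed, none of the 49 passed the exact binomial test, beside 3.53% of all genes called at this setting. An unadjusted p under the threshold was reached by 2, and the unadjusted share of all genes was not counted. Gdi2, a GDP dissociation inhibitor, had 198 and 222 CPM and did not pass (adjusted p = 0.608, exact binomial test).

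The 14 exchange factors summed to 590 CPM in replicate 1 and 667 in replicate 2, the 12 GTPase-activating proteins to 413 and 495, and the 24 effectors to 672 and 756. The highest exchange factors were Dennd5a with 118 and 145 CPM and Rab3ip, which acts on Rab8, with 111 and 92 reads. The highest GTPase-activating proteins were Tbc1d10b at 112 and 126 CPM, Tbc1d17 at 60.8 and 65.3 CPM, and Rabgap1 at 53.9 and 51.8 CPM. After Rph3a, the leading effectors were Rilpl1 with 75.3 and 48.4 CPM and Rabep1, which binds Rab5, with 53.1 and 67.5 CPM. None of the 13 exchange factors and 11 GTPase-activating proteins tested passed the exact binomial test between libraries, and 1 of 19 effectors tested did. Over all genes tested 10.8% passed, so with lists this short these counts do not set the lists apart. An unadjusted p under the threshold was reached by 2 GTPase-activating proteins.

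Most Rab reads matched an annotated transcript. The deposited tables give each model a class: annotated, incomplete splice match (part of an annotated exon chain), new combination of annotated splice sites, at least 1 unannotated splice site, or genomic (overlapping the gene without its exon structure). Annotated transcripts took 81.0% of Rab reads in replicate 1 (95% interval 80.1 to 81.9, Clopper-Pearson) and 83.2% in replicate 2 (82.3 to 84.1), a mean of 82.1% ± 1.55 (SD, n = 2). In the other protein-coding genes the shares were 71.9% and 71.6%. Intervals cover counting error only. Among the 41 Rab genes that had 20 or more reads in both libraries, the median annotated share was 87.1% and 87.0%, beside 73.9% and 75.0% over 6435 other protein-coding genes. It was over 90% in both libraries in 12 Rab genes (29.3%, beside 1028 of the 6435 others) and under 50% in 3, Rab6b, Rab34 and Rab3c (7.32%, beside 21.3%). Unannotated splice sites took 5.85% and 4.86% of Rab reads, incomplete matches 6.09% and 6.84%, new combinations 2.44% and 2.50%, and genomic models 4.61% and 2.59%.

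**Figure D3:**
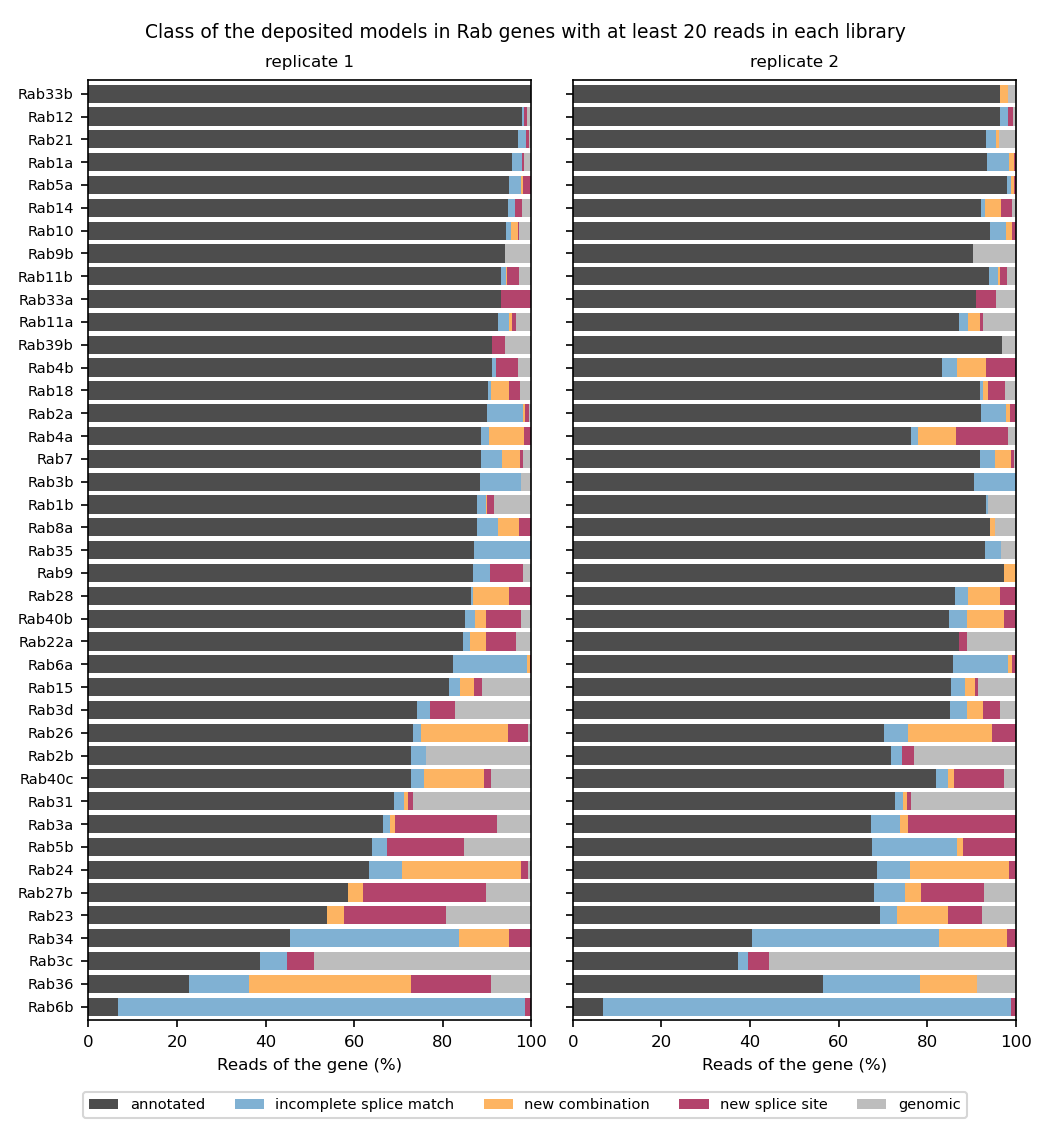
Percent of each gene's reads in the 5 classes of deposited models, for the same 41 Rab genes, sorted by the annotated share in replicate 1. The annotated share runs from 6.73% in Rab6b to 100% in Rab33b in replicate 1, and Rab6b, Rab3c and Rab34 are under 50% in both panels.

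In most genes 1 transcript led. The leading form took a median of 86.8% and 85.2% of the reads of the 41 Rab genes, beside 68.3% and 68.5% over the 6607 genes that met the same minimum. In 23 Rab genes it took over 80% in both libraries. Rab12-205 had 97.8% and 96.4%, Rab1a-201 95.6% and 93.5%, Rab5a-201 94.9% and 97.9%, and Rab10-201 94.2% in each. None of the 41 passed a test of the leading share between libraries by Fisher's exact test with Benjamini-Hochberg adjustment, beside 1.06% of all genes tested. At an unadjusted p under the 0.05 threshold there were 2, Rab1b (87.0% and 92.5%) and Rab36 (18.2% and 52.2%, from 22 and 23 reads). No unadjusted share of all genes is given beside these 2.

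Rab40c and Rab34 split their reads among several forms. Rab40c-207 had 26 and 34 reads and Rab40c-201, which has an extra intron in the 5′ untranslated region, had 22 and 25 reads. Rab34-203 had 25 and 17 reads (31.6% and 32.7%). A 3-exon incomplete match of Rab34, which starts at position 78191365 of chromosome 11 where a coding exon begins, had 24 and 14 reads. The next Rab34 form, Rab34-201, had 11 and 3 reads.

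Some unannotated spliced forms recurred between libraries, and most were in 1 library only. There were 283 such forms of Rab genes in replicate 1 and 244 in replicate 2. The 93 with the same intron chain in both held 74.2% and 70.3% of the reads of these forms. A single Rab3a form gave 309 and 201 of the shared reads, and no such share of other genes is given here. The form with the most reads belonged to Rab3a: it left the first exon at position 70754869 of chromosome 8 in place of the annotated 70754863, in the 5′ untranslated region, and had 309 reads (22.0% of the gene) in replicate 1 and 201 (22.9%) in replicate 2. Rab3a-201 had 902 reads (64.2%) and 558 (63.5%). The first-exon donor thus lies 6 nt further on, and its form had a like share in both libraries. The next were Rab24 with intron 5 retained (29 and 13 reads), the 3-exon Rab34 form, a Rab7 form with an added exon (20 and 16 reads), and a Rab28 form without an 89-nt exon (16 and 10 reads).

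Rab6a carries a pair of exclusive exons of 106 nt each, of which a read holds 1. The proximal exon (chr7:100629666-100629771) belongs to Rab6a-202 and the distal one (chr7:100629838-100629943) to Rab6a-201, both on the plus strand of mm10 and coding. They are shown because they are the choice between the 2 Rab6a proteins. Capitals mark the 30 of 106 bases that differ.
Rab6a proximal exon: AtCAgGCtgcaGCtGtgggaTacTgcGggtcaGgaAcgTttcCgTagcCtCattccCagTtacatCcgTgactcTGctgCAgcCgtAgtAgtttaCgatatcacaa
Rab6a distal exon: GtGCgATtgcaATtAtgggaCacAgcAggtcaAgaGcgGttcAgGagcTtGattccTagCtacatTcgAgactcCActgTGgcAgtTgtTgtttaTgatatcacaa
The exons were 71.7% identical, and of the 24 codons that differ between the transcripts 3 code for another amino acid. The proximal exon was in 14 of the reads over the pair in replicate 1, with 368 holding the distal one, and in 21 against 359 in replicate 2. Its share was 3.66% and 5.53% and the difference did not pass Fisher's exact test (p = 0.231, adjusted p = 1). The 95% intervals, 2.02 to 6.07 and 3.45 to 8.32, overlap, and the distal exon led in both libraries.

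In all, 66 exon events of 26 Rab genes had at least 20 reads in each library, 64 cassette exons and 2 exclusive entries. Both entries are the Rab6a pair described above and share the distal exon. In the second, the proximal exon starts at position 100629671 and had 0 reads in replicate 1 and 1 in replicate 2. None of the 66 events passed between libraries by Fisher's exact test with Benjamini-Hochberg adjustment, beside 0.0111% of 9011 events of all genes. At an unadjusted p under the 0.05 threshold there was 1, with no unadjusted share of all events given beside it. The minor form reached 5% in both libraries in 3 of the 66 (4.55%), beside 15.5% of all events. Of these, 2 were in Rab28 and 1 in Rab22a. In many of the 66 events the minor form was 1 read in 1 library. For such events a small minor share follows from read depth, so the 4.55% and 15.5% describe the events counted. They do not show how Rab cassette exons in general are spliced.

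Rab28, on the minus strand of chromosome 5, held 2 of the 3. Its 89-nt coding exon (chr5:41698390-41698478) was in 202 reads and skipped in 17 in replicate 1, and in 126 and skipped in 11 in replicate 2, an inclusion of 92.2% and 92.0%. Without it the reading frame meets a stop after 63 of 221 codons. A 95-nt exon near the 3′ end (chr5:41626987-41627081), which marks Rab28-203, was in 26 reads and skipped in 185 in replicate 1, and in 7 and skipped in 126 in replicate 2. Its inclusion of 12.3% (95% interval 8.21 to 17.5) and 5.26% (2.14 to 10.5) gave an unadjusted p of 0.0377 by Fisher's exact test and an adjusted p of 1. This exon replaces the protein's end, so the last 10 codons and the stop of both forms are shown with the cysteine codon in capitals (chr5:41625770-41625802 and chr5:41626992-41627024, minus strand).
Rab28-201: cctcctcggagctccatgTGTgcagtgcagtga
Rab28-203: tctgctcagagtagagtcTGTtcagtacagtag
Both ends keep 1 cysteine codon with 3 codons after it, in proteins of 221 and 220 codons.

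Rab22a, an early endosome Rab, skipped an 82-nt coding exon (chr2:173688147-173688228) in 3 reads with 50 holding it in replicate 1, and in 5 with 43 in replicate 2, an inclusion of 94.3% and 89.6%. Skipping leads to a stop after 68 of 194 codons. Rab7 added an 87-nt exon in its 5′ untranslated region (chr6:88015632-88015718) in 20 of 562 reads and 16 of 551, 3.56% and 2.90%. Rab10 skipped a 139-nt coding exon in 4 reads of each library, with an inclusion of 98.7% and 98.8%. None of these 3 passed the test between libraries.

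**Figure D4:**
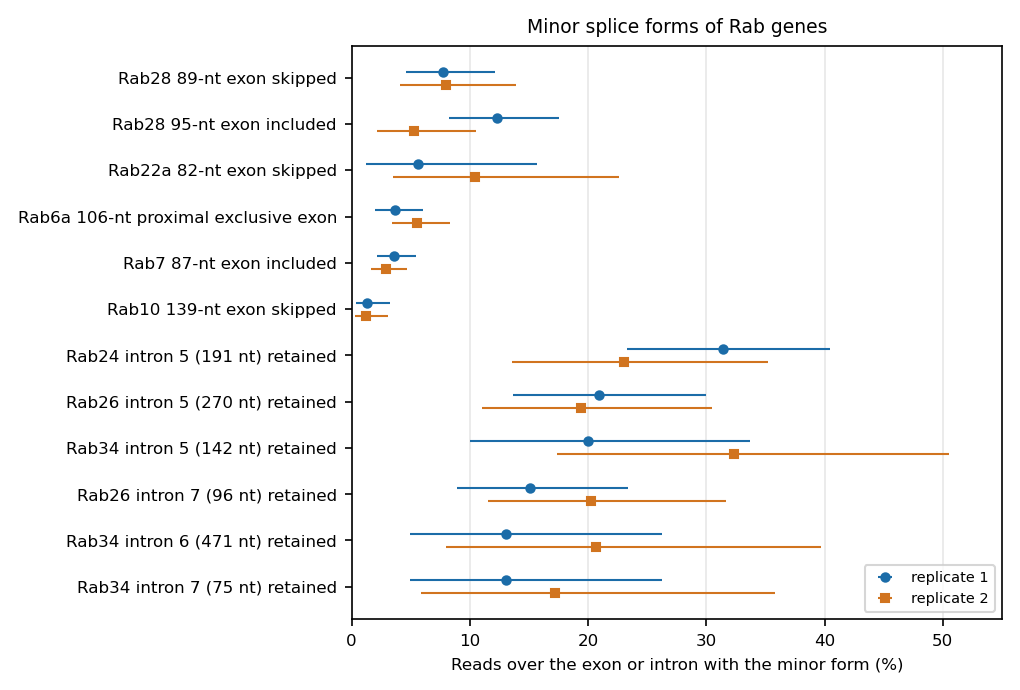
Percent of reads with the minor form at 6 exons and 6 introns of Rab genes, with replicate 1 as circles and replicate 2 as squares; bars are 95% Clopper-Pearson intervals. The bars of the 2 libraries overlap in all 12. The highest share in replicate 1 is that of the Rab24 intron, at 31.4% (23.1% in replicate 2). The highest in replicate 2 is that of a Rab34 intron, at 32.4% (20.0% in replicate 1).

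Intron retention was counted in spliced reads over the introns of each gene's most read annotated transcript. Of 196 Rab introns in 39 genes, 147 (75.0%) had no retaining read, beside 78.6% of 47151 introns of all genes. Retention reached 10% in both libraries at 6 Rab introns (3.06%), beside 1.23% over all genes, and these lay in Rab24, Rab26 and Rab34 between coding exons. No test was run on these shares.

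Rab24 intron 5 (chr13:55320554-55320744, 191 nt, minus strand) was retained in 38 reads and spliced in 83 in replicate 1, and retained in 15 and spliced in 50 in replicate 2. That is 31.4% (95% interval 23.3 to 40.5) and 23.1% (13.5 to 35.2). With the intron kept the frame meets a stop after 148 of 203 codons, ahead of the cysteine codons of the tail. The intron is shown because it carries the largest retained share in replicate 1, with its first and last 2 bases in capitals.
Rab24 intron: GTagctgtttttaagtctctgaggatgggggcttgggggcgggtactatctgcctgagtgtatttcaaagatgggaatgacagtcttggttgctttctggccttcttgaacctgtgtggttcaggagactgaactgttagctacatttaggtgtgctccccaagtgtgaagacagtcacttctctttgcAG

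Rab26 retained its intron 5 (270 nt) in 22 reads with 83 spliced in replicate 1 and in 14 with 58 in replicate 2 (95% intervals 13.6 to 30 and 11.1 to 30.5). Its intron 7 (chr17:24529818-24529913, 96 nt, minus strand) was retained in 16 with 90 spliced and in 14 with 55, 15.1% and 20.3%. With either intron kept, the frame meets a stop after 183 and 208 of 260 codons. Intron 7, the shorter of the pair, is shown in the same way.
Rab26 intron: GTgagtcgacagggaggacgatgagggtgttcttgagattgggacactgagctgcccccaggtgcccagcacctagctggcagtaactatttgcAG
Rab34 retained intron 5 (142 nt) in 10 and 11 reads with 40 and 23 spliced, 20.0% and 32.4%. Its intron 6 was retained in 6 reads of each library with 40 and 23 spliced, and its intron 7 in 6 and 5 with 40 and 24. Models that end inside intron 6, at position 78190933, held 4 and 5 Rab34 reads. Their main form, with 3 reads in each library, runs through intron 5 and does not reach the later exons. Part of the intron 5 count is thus not from whole transcripts. In an otherwise annotated transcript, intron 5 kept leads to a stop after 182 of 259 codons. Counts at Rab34 were small and the intervals of the 2 libraries overlap. Leaving out models of 1 read left the Rab24 and the Rab26 introns above 10% and none of Rab34. Introns also needed 20 reads in each library, which those of Rab34 may then have missed.

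**Figure D5:**
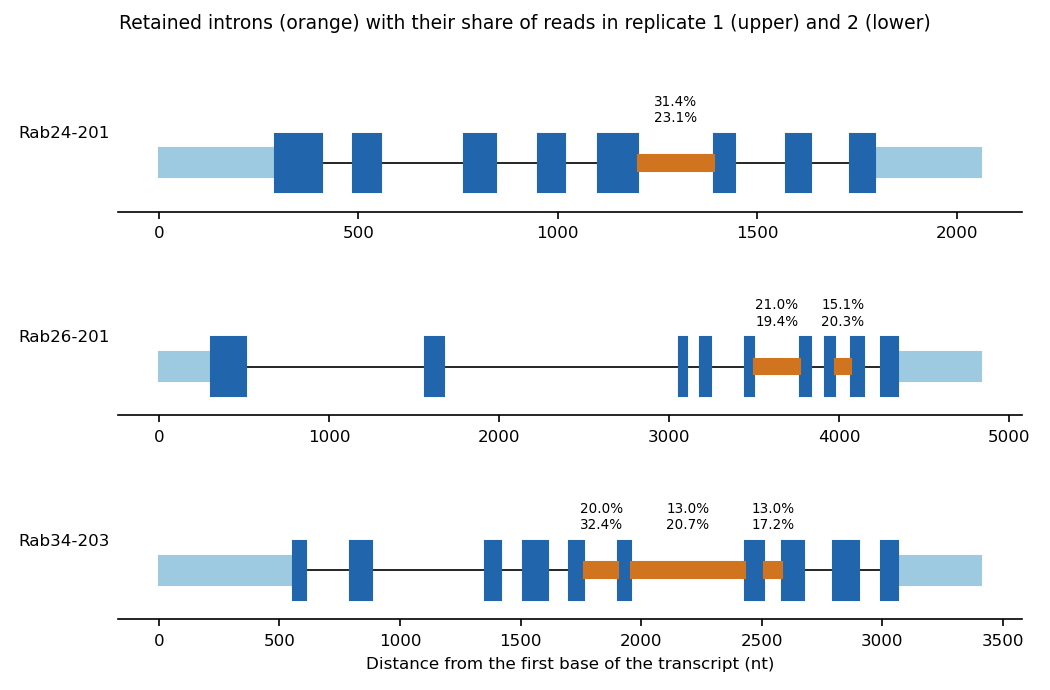
Exons (boxes; coding parts tall and dark) of the most read annotated transcripts of Rab24, Rab26 and Rab34, to scale in nt from the first base. Orange marks the introns retained in at least 10% of reads in both libraries, with the percent in replicate 1 above that in replicate 2, for example 31.4% and 23.1% in Rab24.

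Among the 41 Rab genes with 20 or more reads in both libraries, Rab6b and Rab3c stood apart by their 1-exon models. In Rab6b, 189 of 208 reads in replicate 1 and 162 of 176 in replicate 2 (90.9% and 92.0%) were on a 1-exon incomplete match inside the last exon, and the spliced Rab6b-201 had 14 and 12 reads. The deposited model of replicate 1 spans chr9:103181410-103185276 with no coding base, and that of replicate 2 spans chr9:103181182-103185276, the whole last exon with 65 coding bases. In Rab3c 24 reads of each library (49.0% and 55.8%) were on a 1-exon genomic model inside the last exon, with no coding base, and Rab3c-201 had 17 and 16 reads. The levels of these 2 genes given above therefore rest largely on reads without a splice junction. Rab8b, with fewer reads, had 9 of 13 and 5 of 11 on unannotated 1-exon models, and Rab8b-201 had 3 and 4. In Rab6a, the paralog of Rab6b, 69 and 51 of 459 and 441 reads were on a 1-exon model of the last exon.

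Over all Rab genes, unannotated 1-exon models held 701 reads (8.54%) in replicate 1 and 484 (7.22%) in replicate 2, beside 10.5% and 8.66% in other protein-coding genes. Of these Rab reads 78.3% and 94.0% were on models with at least 95% of their length inside the last exon of the most read transcript. In Rab3a the 1-exon reads were 110 in replicate 1, on a genomic model that spans 3975 nt of the gene, introns included, and 37 in replicate 2, on a model of the last exon. The coordinates of a 1-exon model need not be those of each of its reads: the Rab2b model holds 13 and 9 reads and is 13 nt long. With unannotated 1-exon models left out, 4 of the 5 genes that differed between libraries still passed, beside 10.6% of all genes at this setting. Rab15 did not (adjusted p = 0.0559, exact binomial test), at a log2 ratio of 0.35 in place of 0.38.

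The 3′ ends were read from the deposited models. All 42502 annotated models listed carry the exon coordinates of the annotation, so their ends are annotated ends and not measured ones. Of Rab reads on unannotated models, 89.7% in replicate 1 and 91.0% in replicate 2 were on models that end within 100 nt of an annotated end of the gene. With ends within 100 nt merged, the leading end held a median of 98.4% and 97.0% of the reads of the 41 Rab genes, beside 94.7% and 95.2% over 6607 genes. Another end with at least 10% in both libraries was found in 3 Rab genes (7.32%), beside 24.3% of all genes. Among models with at least 2 reads it was found in none.

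These 3 were Rab23, a Rab of the Hedgehog pathway, Rab27b and Rab36, all with few reads. Rab23 had 18 and 20 reads at position 33742564 of chromosome 1 and 5 and 6 reads at an end 1853 nt upstream (19.2% and 23.1%). Rab27b had 21 and 19 reads at its leading end and 6 and 9 at one 4525 nt upstream (20.7% and 32.1%). Rab36 had 6 and 15 reads at position 75054100 of chromosome 10, 9 and 2 at an end 648 nt downstream, and 5 and 4 at one 1175 nt upstream. The largest other count was in Rab11b, with 33 and 22 reads (8.01% and 6.29%) 4266 nt upstream of its leading end.

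Rab24 was the only Rab gene of 41 whose leading end differed between libraries, beside 3.94% of all genes tested. It held 93 of 123 reads in replicate 1 and 65 of 67 in replicate 2, 75.6% and 97.0% (adjusted p = 0.00292, Fisher's exact test). The other end, 1560 nt downstream, had 29 reads in replicate 1 and 2 in replicate 2. All 29 are the reads of 1 deposited model, the form with intron 5 retained, and in replicate 2 the model of that intron chain, with 13 reads, ends 5 nt beyond the leading end. The end of each single read in that model is not given, so the call rests on 1 model's coordinate.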

How the data were processed

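Long-read RNA sequencing of 2 hippocampus libraries was analysed from the deposited tables, which hold raw read counts per transcript model, not scaled. Per the text files deposited with them, the build was mm10 with GENCODE M21, and the deposited annotation names TALON as the source of added models; for the aligner, tool versions and read filters the sources used here give nothing (not stated). The members, gene lists and tests were chosen with earlier results of these data known. Genes are named by a rule: the 3 highest of each list, every gene called, genes at 0, genes under 50% annotated, exon events, other end forms and the 5 most read unannotated spliced forms; the other members were added by value for completeness. Some items that the rule names are not reported here.

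Reads of all models that carry a gene's identifier were summed, and CPM use the library total, spike-in reads included. Read splits were tested with the exact binomial test (2 times the smaller tail), shares with Fisher's exact test, both with Benjamini-Hochberg adjustment over all genes or events and a threshold of 0.05. Leading forms, events and ends needed 20 reads in each library; ends within 100 nt were merged. The lowess length trend used genes with at least 50 reads. Unannotated models were matched by intron chain. Intron retention and the omission of 1-exon models were added after seeing the data. Alternatives used edgeR 4.0.16 (TMM) and DESeq2 1.42.0 size factors, with Python 3.11.15, scipy 1.17.1 and statsmodels 0.14.6. The binomial test was tried on simulated reads, and the counting of exon events, retained introns and ends on a made-up gene. Fisher's exact tests and the length trend were not tried in this way. Sequences were cut by exon from the M21 transcript sequences. Deposited exon coordinates were used as given.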

Additional observations from a re-analysis of the deposited data

Results flagged for a closer look

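Rab30, a Golgi member with 17 reads in replicate 1 and 11 in replicate 2, was the only Rab gene with more reads on opposite-strand models over its exons than on its own strand in both libraries. These models, which have no GENCODE gene name, held 36 and 34 reads, 70 in all, and no comparison uses them. Over all Rab genes such opposite-strand models held 126 and 94 reads.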

How the results depend on the processing

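The count of Rab genes that differed between libraries was 5 of 48, beside 10.8% of all genes. It was 2 of 48 with TMM-scaled totals (9.74% of all genes) and 2 of 48 with DESeq2 size factors (9.80%), which moved the median log2 ratio of all genes from 0.11 to -0.01 and 0.00, and 1 of 48 with the length trend removed (3.53%), a gene outside the 5 (Rab18). It was 6 of 44 on annotated transcripts only (10.8%) and 6 of 40 at a minimum of 50 reads (21.4%), both with Rab1b added, 5 of 55 at 1 read (5.75%) and 4 of 46 without unannotated 1-exon models (10.6%). The 3 Rab cycle genes became 0 with the length trend removed and 2 to 4 otherwise. The Rab sum, 7022 CPM in replicate 1 and 7548 in replicate 2, was 7337 and 7224 CPM with TMM-scaled totals, the other order. On annotated transcripts only its mean was 5984 CPM in place of 7285, by construction. Leaving out either library only returns the value of the other, so it is no check of the sum or of the annotated share. The annotated share, 82.1%, was 84.4% among models with at least 2 reads, and 81.0% and 83.2% in the single libraries. Genes with another end form went from 3 to 0, and retained introns from 6 to 3, among models with at least 2 reads. Fewer reads remain there, so genes and introns can fall under the minimum for being counted. Merging ends within 25 or 300 nt left 3 genes with another end form. No leading share or exon event passed at 10 reads or on annotated models either. No called gene changed direction under any of these settings. Rph3a could not be tested on annotated transcripts only, where it did not reach the minimum of 10 reads. No paired analysis was possible because there is 1 group. Pools of 3 animals with 1 library each give no spread between animals.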
